A study of Mus musculus with 3 samples.

Results

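The genes examined here encode the epidermal growth factor (EGF) family ligands amphiregulin (Areg), epiregulin (Ereg), heparin-binding EGF-like growth factor (Hbegf), transforming growth factor α (Tgfa) and betacellulin (Btc), the ErbB receptors Egfr, Erbb2 and Erbb3, and the receptor inhibitors Lrig1 and Errfi1. They were chosen by gene symbol and are 10 of the 32285 genes in the deposited matrices, each matching 1 feature. Their levels were followed in mouse colon organoids, clusters of primary epithelial cells grown from crypts without stroma, in 3 libraries of droplet single-cell RNA-seq (sc-RNAseq). The libraries were untreated, IFN-γ for 24 h and IFN-γ for 48 h, with 1 library per condition. The dose of IFN-γ was 50 ng/ml. The full medium of these cultures, which the untreated cells had too, holds Wnt, R-spondin, noggin, the Wnt activator CHIR and 50 ng/ml recombinant mouse EGF. All cells were therefore exposed to a ligand of Egfr throughout. The paper states that colon organoids were derived from untreated wild-type mice. Its methods name C57bl/6 and the Krt20 and Axin2 reporter strains as tissue sources for organoids and for cultures with stroma. The mice used were of both sexes and 6 to 12 weeks old. The labels repeat none of this for the 3 libraries, and they do not say whether organoids of several mice were pooled.

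EGF family ligands are made as membrane-anchored precursors that proteases such as Adam17 release from the cell surface. A released ligand binds an ErbB receptor, the receptors pair and phosphorylate each other, and RAS, ERK and AKT signaling follows. Areg, Tgfa and Egf bind Egfr, whereas Ereg, Btc and Hbegf also bind Erbb4 and the neuregulins (Nrg1 to Nrg4) bind Erbb3 or Erbb4. Erbb2 has no known ligand of its own and serves as the preferred partner of the others. Lrig1, also known as a marker of intestinal stem cells, promotes the degradation of ErbB receptors, and Errfi1 (also called Mig6) blocks the Egfr kinase. In the gut epithelium this signaling drives proliferation of crypt cells and repair after injury.

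The 3 libraries held 917 to 2934 cells after the filter used in the study, which asks for 5000 UMIs and 400 genes or more and for a mitochondrial share of 15% or less, where a UMI is a molecular tag that marks 1 captured transcript. The summed counts of these cells were 49801935 UMIs untreated, 71077817 at 24 h and 47243500 at 48 h. Depth differed, with a median of 33550, 68784 and 10772 UMIs per cell, and 1 to 4 cell barcodes were shared by a pair of libraries. Levels are given as CPM, the UMIs of a gene scaled to the total of the library. A CPM ratio to the untreated library is given on the log2 scale with an exact 95% interval that covers counting error only. With 1 library per condition no spread between samples could be measured, no test was possible and no p-value is given. Both treated libraries share the untreated control. A gene is counted as higher or lower where its CPM differed at least 2-fold and it had at least 50 UMIs over both libraries. TMM scaling (edgeR) in place of CPM raised all log2 ratios by 0.45 at 24 h and by 0.19 at 48 h, and values under it are given beside the counts and where a direction changed. The cells carried epithelial markers as labelled. Of 7 immune markers, 4 to 6 had any UMI, their summed level was 2.79 to 3.98 CPM, and Ptprc was at 0 in every library. Of 7 stromal markers, 2 to 3 had any UMI, their summed level was 0.53 to 1.29 CPM, and Col1a1, Col3a1 and Lum were at 0.

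At 24 h, 2 of the 10 genes were at least 2-fold higher than in untreated cells, the ligands Areg and Ereg, beside 2.97% of the 14230 genes with enough counts. A further 5 were at least 2-fold lower, Hbegf, Erbb2, Erbb3, Lrig1 and Errfi1, beside 19.9% of all genes. Under TMM scaling the same 2 genes were higher, beside 6.41% of all genes, and only Hbegf was lower, beside 11.4%. At 48 h, Areg and Ereg were again higher (background 4.18%, or 5.36% under TMM scaling) and Hbegf was lower (12.1% under CPM), whereas under TMM scaling no member was 2-fold lower (9.35% of all genes). The median log2 ratio of the 10 genes was -0.89 at 24 h, where the median of all genes was -0.38, and -0.44 at 48 h, where it was -0.14. Thus a ligand pair with higher levels stood beside lower levels of the ligand Hbegf, of Erbb2 and Erbb3, and of both inhibitors. Of the lower genes only Hbegf passed 2-fold at 48 h. The count of lower members exceeded the share of all genes only at 24 h under CPM, and otherwise lay near or below it. Between 24 h and 48 h no member differed 2-fold in either direction (7.33% of all genes were higher and 1.31% lower at 48 h, or 3.07% and 2.69% under TMM scaling).

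**Figure D1:**
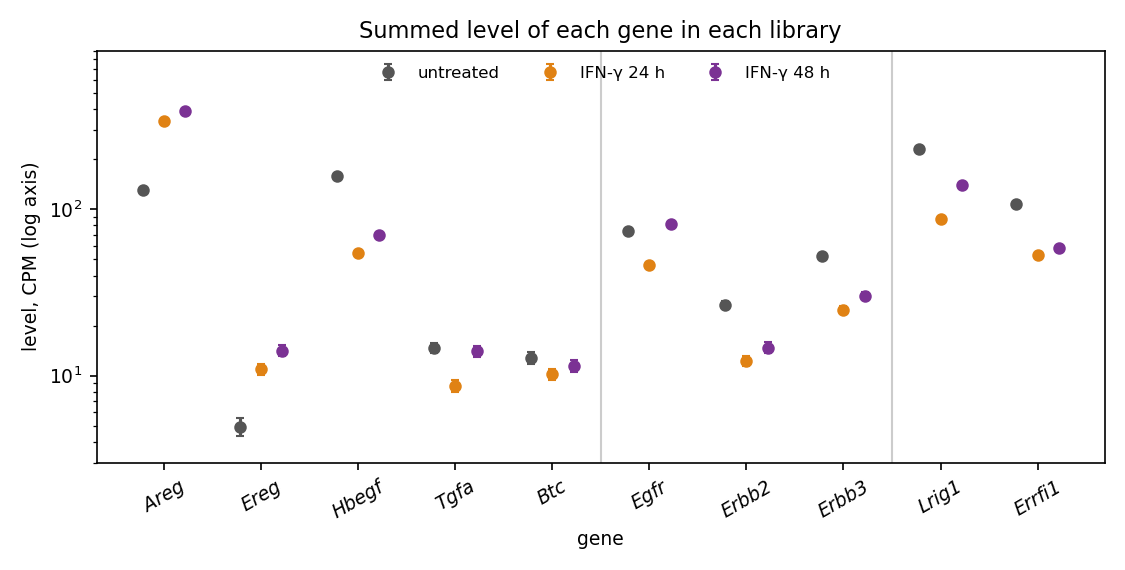
Summed level of each gene in the untreated, IFN-γ 24 h and IFN-γ 48 h libraries, in CPM on a log axis, with ligands on the left, receptors in the middle and inhibitors on the right. Points are 1 library each and bars are exact Poisson 95% intervals; Areg goes from 131 to 341 and 393 CPM, whereas Hbegf goes from 159 to 54.4 and 70.5 CPM.

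Areg, a ligand of Egfr linked to repair of the gut lining, gave 6522, 24208 and 18566 UMIs in the untreated, 24 h and 48 h libraries. These counts correspond to 131 CPM (95% interval 128 to 134), 341 CPM (336 to 345) and 393 CPM (387 to 399). Both treated libraries were high and their intervals lay far from that of the untreated library. The log2 ratio was 1.38 (1.34 to 1.42) at 24 h and 1.59 (1.54 to 1.63) at 48 h, or 2.6-fold and 3-fold. Barcodes below 2000 UMIs, which may hold free RNA, carried Areg at 94.7, 232 and 238 CPM, so their level moved in the same direction as the level in cells. The lowest barcodes held 1390, 851 and 1624 UMIs, so this set differs between the libraries, and what it contains was not tested. The part of free RNA in the values per cluster was not tested.

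Ereg, which lies next to Areg, was lower in abundance within each library and had the same direction. It gave 245, 774 and 667 UMIs, which are 4.92, 10.9 and 14.1 CPM. Its log2 ratio was 1.15 (0.94 to 1.36) at 24 h and 1.52 (1.31 to 1.74) at 48 h. In barcodes below 2000 UMIs Ereg stood at 2.61, 5.29 and 4.78 CPM, higher in both treated libraries too. The part of free RNA in the Ereg values was not tested. Btc, a ligand gene of the same neighbourhood, did not share this pattern. Its counts of 636, 724 and 541 UMIs correspond to 12.8, 10.2 and 11.5 CPM, with log2 ratios of -0.33 (-0.48 to -0.17) and -0.16 (-0.33 to 0.01). Under TMM scaling the Btc ratios changed sign, to 0.12 and 0.03. Barcodes below 2000 UMIs carried Btc at 11.3, 7.82 and 5.91 CPM, in the untreated library close to its level in cells. The part of free RNA in the Btc values was not tested. These genes sit on chromosome 5 of GRCm38, Ereg at chr5:91074622-91093646 and Areg at chr5:91139599-91148432 on the plus strand, and Btc at chr5:91357261-91402994 on the minus strand (GENCODE vM21). The ligand gene Epgn, with 2, 6 and 4 UMIs, lies on the other side of Ereg at chr5:91027464-91035215.

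The promoters of 2 members are shown because they share an element, although Areg was higher and Errfi1 lower in both treated libraries. They are the 250 bases before the RefSeq start on GRCm38.p6, plus strand, chr5:91139349-91139598 for Areg and chr4:150854820-150855069 for Errfi1, with capitals for a cAMP response element (TGACGTCA) and for a TATAAA box.
Areg: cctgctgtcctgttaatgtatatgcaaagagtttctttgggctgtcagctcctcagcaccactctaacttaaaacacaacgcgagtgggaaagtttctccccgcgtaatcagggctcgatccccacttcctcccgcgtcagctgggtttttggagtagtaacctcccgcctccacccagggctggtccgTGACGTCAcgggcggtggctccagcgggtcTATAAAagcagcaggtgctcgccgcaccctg
Errfi1: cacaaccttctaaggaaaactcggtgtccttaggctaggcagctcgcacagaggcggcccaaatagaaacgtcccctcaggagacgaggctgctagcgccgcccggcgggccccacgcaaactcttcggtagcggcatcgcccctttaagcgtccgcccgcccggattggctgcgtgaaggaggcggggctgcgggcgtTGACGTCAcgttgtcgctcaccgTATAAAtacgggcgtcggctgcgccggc
The response element began 61 bases before the RefSeq start of Areg and 51 bases before that of Errfi1, and the TATAAA box 31 and 28 bases before it. The Areg window ends directly before the gene as annotated by GENCODE. That of Errfi1 lies inside the GENCODE gene (chr4:150853919-150868892), so its RefSeq start is downstream of the GENCODE gene start. Promoter windows of 250 bases before and 50 after the start were searched on both strands for 7 of the 10 genes, with 8 windows in all. Ereg, Hbegf and Erbb3 had no promoter entry and were not searched. TGACGTCA stood in 2 of the 8 windows and in 1.79% of the 32851 windows of all genes, and TATAAA stood in the same 2 and in 13.6% of all windows. The interferon-γ activated site TTCNNNGAA stood in none of the 8 and in 8.30% of all. The interferon-stimulated response element, searched as GAAANNGAAA (3.44% of all), and the AP-1 site TGANTCA (7.81%) were likewise not found in these windows. A match of letters describes a window and shows no binding, and the same holds for its absence.

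Hbegf, a ligand of Egfr that also binds heparan sulfate on the cell surface, showed the reverse of Areg. It gave 7905, 3869 and 3331 UMIs, which are 159 CPM (155 to 162), 54.4 CPM (52.7 to 56.2) and 70.5 CPM (68.1 to 72.9). The untreated library was high and both treated libraries were low. The log2 ratio was -1.54 (-1.60 to -1.49) at 24 h and -1.17 (-1.23 to -1.11) at 48 h, or 2.92-fold and 2.25-fold lower. Under TMM scaling the ratios were -1.10 and -0.98, so at 48 h the call depends on the scaling. In the barcodes below 2000 UMIs, Hbegf stood at 38.0, 19.1 and 14.9 CPM, well under its level in cells of the same library.

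Tgfa, the fifth ligand, was low only in the 24 h library. Its 730, 615 and 663 UMIs correspond to 14.7, 8.65 and 14.0 CPM. The log2 ratio was -0.76 (-0.92 to -0.60) at 24 h, and at 48 h it was -0.06 with an interval from -0.22 to 0.09 that includes no difference. Under TMM scaling the 48 h value changed sign, to 0.12. Tgfa lies on chromosome 6 at chr6:86195223-86275719.

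**Figure D2:**
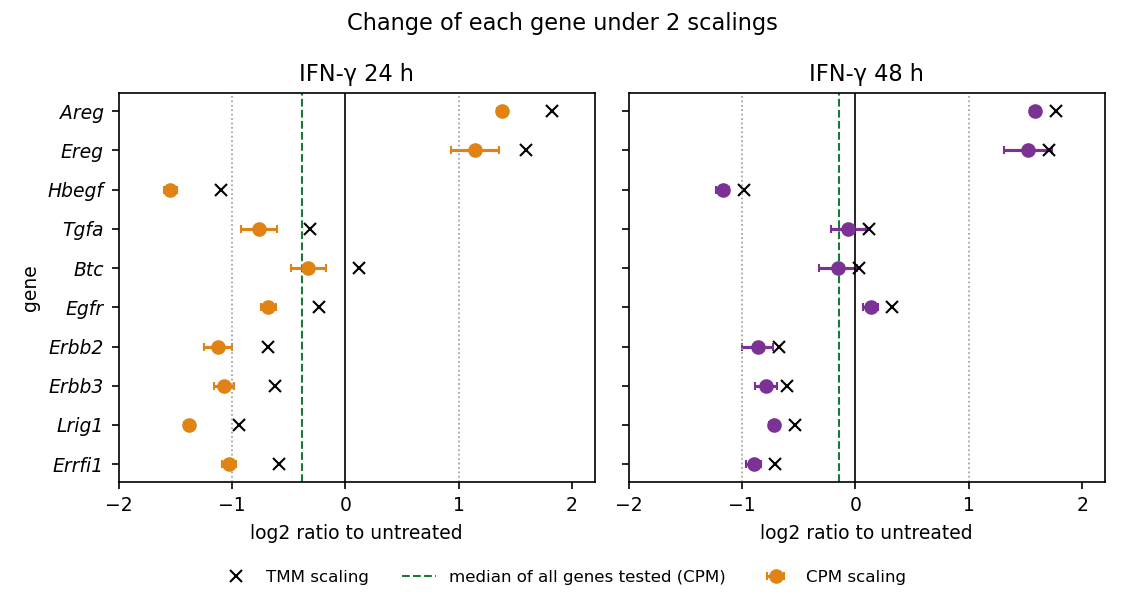
Log2 ratio of each gene to the untreated library at 24 h (left) and 48 h (right), with CPM scaling as dots with exact 95% counting intervals and TMM scaling as crosses. The dashed line is the median of all genes tested, at -0.38 and -0.14, and dotted lines mark 2-fold; Areg and Ereg lie right of the upper dotted line under both scalings at both times, and Egfr lies left of 0 at 24 h and right of it at 48 h.

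Among the receptors, Egfr (chr11:16752203-16918158) was lower at 24 h, by an amount that depended on the weight of the clusters, and close to its untreated level at 48 h, whereas Erbb2 and Erbb3 were lower at both times. Egfr gave 3697, 3300 and 3850 UMIs, which are 74.2 CPM (71.9 to 76.7) in untreated cells, 46.4 CPM (44.9 to 48.0) at 24 h and 81.5 CPM (78.9 to 84.1) at 48 h. Its log2 ratio was -0.68 (-0.75 to -0.61) at 24 h and 0.13 (0.07 to 0.20) at 48 h, and over the alternative settings these values ranged from -0.68 to -0.03 and from -0.08 to 0.40. The 24 h value was -0.03 when clusters were weighted by their untreated shares of cells, and -0.23 under TMM scaling. Egfros, an antisense RNA gene inside Egfr, had 309, 133 and 202 UMIs, and reads of this pair may be mixed where strand was not used in counting, which is not given in the sources used here. Erbb2 (chr11:98412470-98437716), the receptor without a ligand, gave 1333, 873 and 695 UMIs, or 26.8, 12.3 and 14.7 CPM. Its log2 ratio was -1.12 (-1.25 to -0.9996) at 24 h and -0.86 (-0.998 to -0.73) at 48 h. Erbb3 (chr10:128567523-128589652), the neuregulin receptor with little kinase activity, gave 2603, 1773 and 1429 UMIs, or 52.3, 24.9 and 30.2 CPM, with log2 ratios of -1.07 (-1.16 to -0.98) and -0.79 (-0.88 to -0.70). Both partner receptors were high in the untreated library alone. Erbb4, the remaining receptor, had 7, 3 and 2 UMIs and was too rare to compare.

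The inhibitors were lower in both treated libraries. Lrig1 (chr6:94604529-94700158) gave 11423, 6263 and 6587 UMIs, which are 229, 88.1 and 139 CPM. Its log2 ratio was -1.38 (-1.42 to -1.34) at 24 h and -0.72 (-0.76 to -0.67) at 48 h. Errfi1 (chr4:150853919-150868892) gave 5393, 3776 and 2750 UMIs, which are 108, 53.1 and 58.2 CPM. Its log2 ratio was -1.03 (-1.09 to -0.97) at 24 h and -0.90 (-0.96 to -0.83) at 48 h. Under TMM scaling neither reached 2-fold at 24 h, with -0.93 for Lrig1 and -0.58 for Errfi1. From 24 h to 48 h the CPM of all 10 genes was higher, with a median log2 ratio of 0.33 where that of all genes was 0.23, and under TMM scaling Areg (-0.05), Btc (-0.09), Errfi1 (-0.13) and Erbb2 (-0.00) lay at or below 0.

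To find the source cells of each ligand, the cells were clustered across the libraries and clusters were named only where marker lists allowed it. Of 8 clusters, 4 were named, a proliferating-like cluster (280, 419 and 805 cells in the untreated, 24 h and 48 h library), a goblet-like cluster (133, 80 and 237 cells), a colonocyte-like cluster (134, 75 and 188 cells) and an enteroendocrine-like cluster (30, 12 and 21 cells). The proliferating-like cluster had the stem cell gene Ascl2 among its leading genes besides histone genes. The other 4 stayed unnamed and are called by their leading genes, Lrrc4 (333, 177 and 1352 cells), Stox2 (116, 88 and 275 cells), Selenbp1 (18, 43 and 47 cells) and Gm26917 (14, 23 and 9 cells). The cluster led by Lrrc4 had 8 of 12 stem markers above the other cells, but its 10 leading genes held none of them. It was shallow, at a median of 15311, 15015 and 7282 UMIs per cell, with a mitochondrial share of 10.4%, 7.96% and 8.85%. The cluster led by Gm26917 was shallow too, at a median of 8249 UMIs per cell in the untreated library and 6911 at 24 h. Levels are not given for the 9 cells led by Gm26917 at 48 h.

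**Figure D3:**
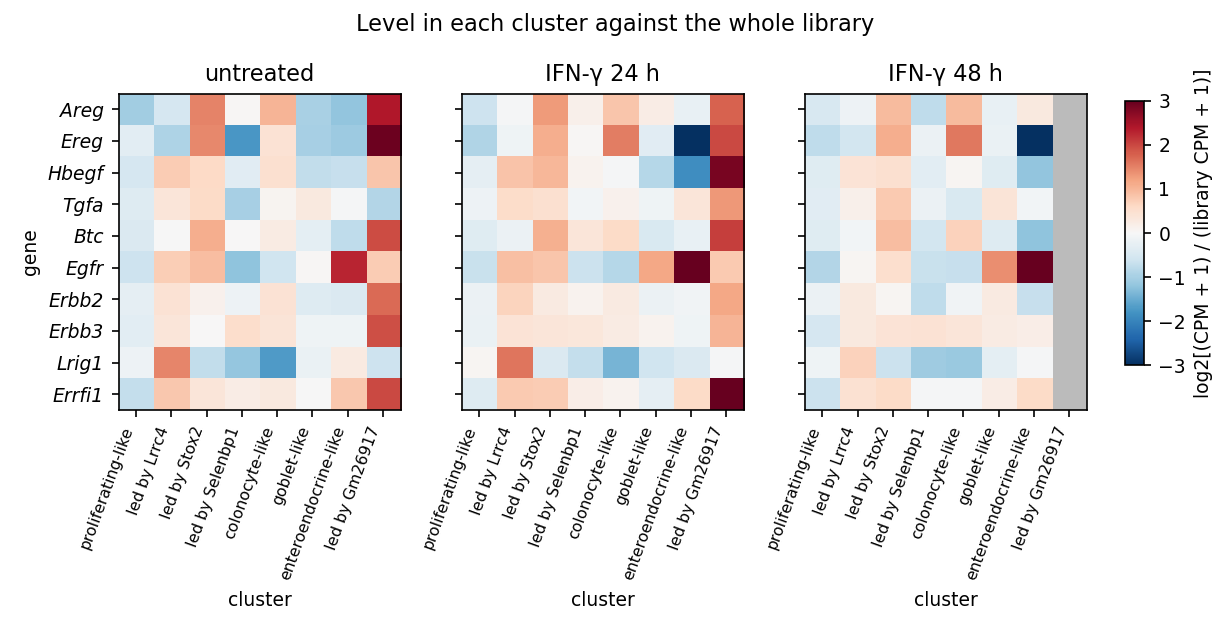
Level of each gene (rows) in each cluster (columns) of the untreated, 24 h and 48 h libraries, as the log2 ratio of cluster CPM + 1 to whole-library CPM + 1, with colours limited at -3 and 3 and grey where a cluster held under 10 cells. Egfr stands out in the enteroendocrine-like column, at 363 CPM in untreated cells and 1384 CPM at 48 h, and Areg in the columns led by Gm26917 and Stox2 and in the colonocyte-like column.

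In untreated organoids Areg was highest in Gm26917-led, Stox2-led and colonocyte-like cells. Its level was 694 CPM in the 14 cells led by Gm26917, 368 CPM in cells led by Stox2, 266 CPM in colonocyte-like cells and 134 CPM in cells led by Selenbp1. It was 91.4 CPM in cells led by Lrrc4, 66.6 CPM in goblet-like, 62.9 CPM in proliferating-like and 56.6 CPM in enteroendocrine-like cells, where the intervals of the last 3 overlap between neighbours. These low levels lie at or below the 94.7 CPM of the barcodes under 2000 UMIs. After IFN-γ, Areg was higher in all 8 clusters at 24 h and in all 7 clusters with enough cells at 48 h, each with an interval above 0. Stox2-led cells (833 and 762 CPM) and colonocyte-like cells (609 and 759 CPM) again had more than proliferating-like cells (219 and 281 CPM). Other clusters changed places, since at 48 h enteroendocrine-like cells had 482 CPM, behind Stox2-led and colonocyte-like cells, and cells led by Selenbp1 were lowest at 232 CPM. The enteroendocrine-like value rests on 110 UMIs in 21 cells, which ranged from 0 to 3799 CPM with a median of 135 CPM. The size differed between clusters, from a log2 ratio of 0.74 (0.38 to 1.11) in cells led by Gm26917 to 2.58 (2.43 to 2.73) in goblet-like cells at 24 h. In proliferating-like cells the log2 ratio was 1.80 (1.72 to 1.88) at 24 h and 2.16 (2.08 to 2.25) at 48 h, although their treated levels lay near those of the barcodes under 2000 UMIs (232 and 238 CPM).

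In both treated libraries the largest share of Areg UMIs came from proliferating-like cells, a cluster with a low level and many UMIs. They held 21.8% of the untreated Areg UMIs and 40.1% and 33.1% of those at 24 h and 48 h, and 45.4%, 62.3% and 46.3% of all UMIs. Colonocyte-like cells held 29.8%, 20.3% and 16.4% of Areg UMIs, cells led by Stox2 28.4%, 18.7% and 19.5% and cells led by Lrrc4 8.65%, 5.42% and 22.1%. Ereg was likewise highest in Stox2-led and colonocyte-like cells besides the few cells led by Gm26917. In colonocyte-like cells its 51, 269 and 178 UMIs correspond to 6.99, 33.3 and 44.5 CPM, with log2 ratios of 2.25 (1.81 to 2.71) and 2.67 (2.21 to 3.15). In proliferating-like cells, at 3.72, 5.40 and 7.91 CPM, the Ereg ratio was 0.54 (0.18 to 0.92) at 24 h and 1.09 (0.71 to 1.48) at 48 h. Their 24 h level lay near the 5.29 CPM of the barcodes under 2000 UMIs. With 1 library per condition, the difference in Ereg ratio between these clusters was not tested.

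Hbegf was spread more evenly over the untreated clusters, with a 2.99-fold range where that of Areg was 12.3-fold. After IFN-γ the ranges of Hbegf and Areg were 27.8-fold and 5.28-fold at 24 h and 3.21-fold and 3.29-fold at 48 h. The 27.8-fold range sets cells led by Gm26917 (395 CPM, 69 UMIs) against enteroendocrine-like cells (14.2 CPM), which gave only 5 UMIs. The cells led by Gm26917 were left out at 48 h, so the ranges there are not over the same clusters. Whether the evenness changed was not tested. In untreated cells Hbegf ranged from 94.8 CPM in goblet-like cells to 284 CPM in cells led by Gm26917. Between these were 269 CPM in cells led by Lrrc4, 241 CPM in cells led by Stox2, 220 CPM in colonocyte-like and 112 CPM in proliferating-like cells. After IFN-γ it was lower in 7 of 8 clusters at 24 h and in 7 of 7 at 48 h, each with an interval below 0, and the exception was the cluster led by Gm26917 (0.48, interval -0.11 to 1.09). In colonocyte-like cells it went from 220 to 52.9 and 73.9 CPM, with log2 ratios of -2.06 (-2.22 to -1.90) and -1.58 (-1.76 to -1.40). In enteroendocrine-like cells the ratios were -2.77 (-4.45 to -1.46) and -1.67 (-3.05 to -0.53), from only 55, 5 and 7 UMIs. Colonocyte-like cells thus carried more Areg and Ereg and less Hbegf in both treated libraries. In these cells the colonocyte marker list summed to 13006, 3741 and 4902 CPM and the proliferating list to 363, 1498 and 677 CPM, and the part of these shifts was not tested. Tgfa and Btc were rare everywhere, between 6.79 and 28.4 CPM in untreated clusters other than that led by Gm26917. All neighbouring clusters in the order of Tgfa had overlapping intervals in each library. Clusters further apart lay at 22.3 CPM (led by Stox2) and 10.9 CPM (proliferating-like) in untreated cells. Btc stood at 28.4, 22.6 and 22.5 CPM in Stox2-led and 15.3, 15.6 and 19.2 CPM in colonocyte-like cells, with intervals that overlapped only at 48 h.

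Egfr was highest in enteroendocrine-like cells, the hormone-secreting cells of the epithelium, in all 3 libraries. In untreated cells their 205 Egfr UMIs gave 363 CPM (315 to 416), followed by 143 CPM in cells led by Stox2, 127 CPM in cells led by Gm26917, 125 CPM in cells led by Lrrc4 and 75.9 CPM in goblet-like cells. Colonocyte-like cells (48.4 CPM), proliferating-like cells (48.0 CPM) and cells led by Selenbp1 (31.7 CPM) were lowest, and the intervals of colonocyte-like and proliferating-like cells overlap. The highest cluster exceeded the lowest 11.4-fold in untreated cells, 44.8-fold at 24 h and 31.4-fold at 48 h.

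After IFN-γ the level of Egfr in enteroendocrine-like cells was 1130.2 CPM (1022 to 1247) at 24 h, from 397 UMIs in 12 cells, and 1384 CPM (1235 to 1545) at 48 h, from 316 UMIs in 21 cells. The log2 ratio was 1.64 (1.39 to 1.89) and 1.93 (1.67 to 2.19). Of the 5 members with enough counts in this cluster, Egfr and Areg were at least 2-fold higher at each time, beside 13.5% of genes at 24 h and 7.92% at 48 h. The others were at least 2-fold lower at each time. Their log2 ratios were -2.77 and -1.67 for Hbegf, -2.09 and -1.03 for Lrig1 and -1.25 and -1.11 for Errfi1. The share of all genes lower in this cluster was not computed. Single cells varied widely, from 0 to 2775 CPM with a median of 210.4 in untreated cells, from 0 to 5937 CPM with a median of 679 at 24 h and from 0 to 7691 CPM with a median of 1105 at 48 h, so the ranges overlap. The enteroendocrine marker list summed to 12895, 23589 and 15871 CPM in these cells and their median depth was 11499, 23512 and 8382 UMIs, and the part of either in the Egfr values was not tested. When the cells were chosen only by the granins, at least 1000 CPM of Chga and Chgb together, 17, 11 and 12 cells remained, all of this cluster, and the differences were smaller. Egfr stood at 466, 938 and 846 CPM in them, with log2 ratios of 1.01 (0.73 to 1.29) and 0.86 (0.52 to 1.20). In the untreated library they gave 170 of the 205 Egfr UMIs of the cluster, and at 24 h also most of them. At 48 h they gave only 135 of 316, although they held 159582 of its 228398 UMIs. Most Egfr UMIs of the cluster at 48 h thus came from cells below the granin cut. What these cells are was not tested. The choice by granins was made after the values were seen.

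Goblet-like cells, the mucus producers, also had more Egfr after IFN-γ, at 75.9 CPM (69.4 to 82.8), 105 CPM (96.3 to 115) and 217 CPM (202 to 233). Their log2 ratio was 0.47 (0.29 to 0.65) at 24 h and 1.51 (1.35 to 1.68) at 48 h. Their goblet marker list summed to 19662, 11205 and 5968 CPM, which was lower where Egfr was higher, and its part in the Egfr values was not tested. Absorptive and dividing cells did not share the direction at 24 h. There the ratio was -0.94 (-1.20 to -0.69) in colonocyte-like and -0.74 (-0.86 to -0.63) in proliferating-like cells, and at 48 h it was 0.06 (-0.20 to 0.31) and -0.12 (-0.25 to 0.00). Cells led by Lrrc4 had less Egfr at both times, with ratios of -0.52 (-0.71 to -0.34) and -0.55 (-0.69 to -0.41). So had cells led by Stox2, with -0.77 (-0.95 to -0.60) and -0.30 (-0.46 to -0.14). Egfr was higher in 2 and lower in 6 of 8 clusters at 24 h, with intervals that excluded 0 in 2 and 4 of them. At 48 h it was higher in 4 and lower in 3 of 7, with 3 and 2 such intervals. The sign depends on the scaling for cells led by Selenbp1 at 24 h (-0.11) and for proliferating-like cells at 48 h. These ratios are smaller in size than the 0.45 and 0.19 that TMM scaling adds at these times. Goblet-like and enteroendocrine-like cells held 13.7% and 5.55% of all Egfr UMIs in the untreated library, 15.1% and 12.0% at 24 h and 19.7% and 8.21% at 48 h.

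**Figure D4:**
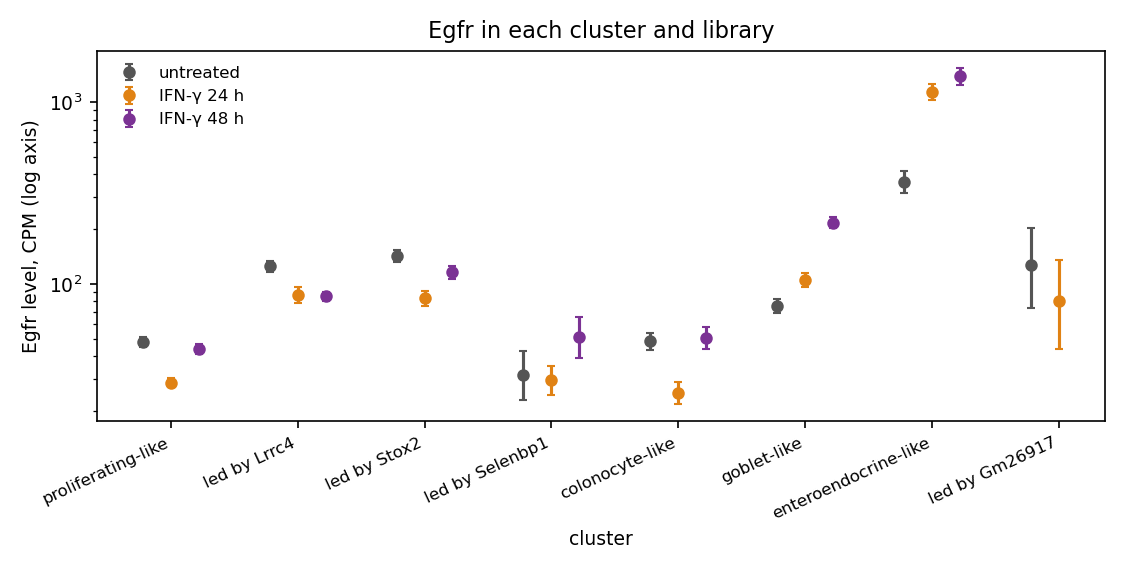
Egfr level in CPM (log axis) in each cluster of the untreated, 24 h and 48 h libraries, with exact Poisson 95% intervals as bars. In the enteroendocrine-like and goblet-like clusters both treated libraries lie above the untreated library, at 1130.2 and 1384 against 363 CPM and at 105 and 217 against 75.9 CPM, while the 24 h library is lowest in the proliferating-like and colonocyte-like clusters.

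Under CPM, Erbb2 and Erbb3 were lower in all 8 clusters at 24 h and in all 7 clusters at 48 h. The log2 ratio of Erbb2 lay between -1.64 and -0.77 at 24 h and between -1.54 and -0.17 at 48 h, and the intervals excluded 0 in 7 and 5 clusters. For Erbb3 it lay between -1.97 and -0.70 at 24 h and between -0.99 and -0.39 at 48 h, with 7 and 6 intervals below 0. Neither receptor had a higher CPM in enteroendocrine-like or goblet-like cells after IFN-γ, in contrast to Egfr. In enteroendocrine-like cells this rests on 11, 4 and 2 UMIs of Erbb2 and 27, 8 and 8 of Erbb3. The intervals of both genes there included 0 at both times. In goblet-like cells the Erbb2 ratio at 48 h was -0.17 (-0.63 to 0.27). It is smaller in size than the 0.19 that TMM scaling adds, so its sign depends on the scaling.

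Lrig1 was highest in the cells led by Lrrc4, the cluster with raised stem markers, at 639, 270 and 227 CPM. It was lowest in colonocyte-like cells, at 70.1, 32.9 and 63.7 CPM. The log2 ratio in the cells led by Lrrc4 was -1.24 (-1.34 to -1.14) at 24 h and -1.49 (-1.57 to -1.42) at 48 h, and in proliferating-like cells it was -1.17 (-1.23 to -1.11) and -0.70 (-0.77 to -0.63). Under CPM, all 8 clusters at 24 h and all 7 at 48 h had less Lrig1, with 7 and 6 intervals below 0. The ratio in colonocyte-like cells at 48 h, -0.14 (-0.36 to 0.08), is smaller in size than the 0.19 that TMM scaling adds. The stem marker list summed to 2829, 1597 and 1635 CPM in the cells led by Lrrc4, so it was lower together with Lrig1 there, and its part was not tested. Errfi1 was lower in 7 of 8 clusters at 24 h and in all 7 at 48 h, with intervals below 0 in each. The exception was again the cluster led by Gm26917, where Errfi1 was 433 CPM in untreated cells and 1049 CPM at 24 h (log2 ratio 1.28, interval 0.84 to 1.73), at a median depth of 8249 and 6911 UMIs per cell.

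The surrounding pathway was read from a list of 61 other genes, of which 57 had enough counts. At 24 h, 1 was at least 2-fold higher and 17 were lower, beside 2.97% and 19.9% of all genes. Under TMM scaling 3 were higher and 7 lower, beside 6.41% and 11.4%. At 48 h, 1 was higher and 12 were lower, beside 4.18% and 12.1%, and under TMM scaling 1 and 9, beside 5.36% and 9.35%. On the log2 scale its genes had a median ratio of -0.63 and -0.29, where that of all genes was -0.38 and -0.14. No listed gene of the RAS and ERK cascade differed 2-fold at either time. Of the 12 genes listed as feedback inhibitors of the pathway, 4 were lower at each time under CPM and 0 and 3 under TMM scaling. Of the 10 ERK target genes, 4 were lower and 0 higher at each time. Under TMM scaling 1 was lower and 2 were higher at 24 h, Ccnd1 (1.13) and Myc (1.07), and 3 were lower and 0 higher at 48 h. Among the 7 genes for ligand shedding, 2 were lower at 24 h and 1 at 48 h (1 and 0 under TMM scaling). The sheddase Adam17 had log2 ratios of -0.28 (-0.38 to -0.18) and 0.13 (0.03 to 0.23), and TMM scaling turned the 24 h value to 0.16. Of the 10 adaptor and receptor turnover genes, 2 and 1 were lower under both scalings, and of the 6 other growth factor receptors 3 and 1 (2 and 1 under TMM scaling).

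**Figure D5:**
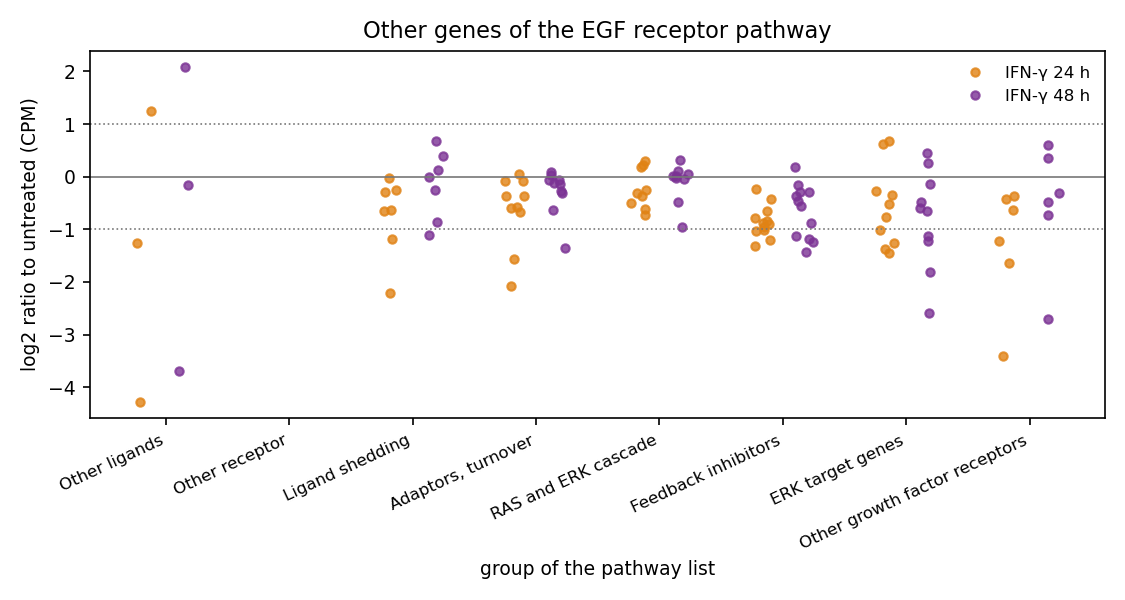
Log2 CPM ratio to the untreated library of the 57 pathway genes with enough counts, by group of the list, at 24 h and 48 h, with dotted lines at 2-fold and 1 point per gene. Points of the RAS and ERK cascade all lie between the dotted lines, the column of the other receptor is empty because Erbb4 had too few UMIs, and the lowest points are Nrg1 at -4.27 and -3.68.

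By the mean over both times, the 5 pathway genes that differed most were Nrg1, Fgfr3, Fos, Gab1 and Nrg3. The neuregulin gene Nrg1, which encodes a ligand of Erbb3, gave 352 UMIs in untreated cells and 26 at each later time, with log2 ratios of -4.27 (-4.91 to -3.70) and -3.68 (-4.32 to -3.11). Enteroendocrine-like cells held 90.3% of the untreated Nrg1 UMIs, 318 UMIs or 563 CPM (503 to 628). They gave 0 UMIs at 24 h, with an upper limit of 10.5 CPM, and 1 UMI at 48 h, or 4.38 CPM. After thinning every cell to 5000 UMIs, 7 of the 30 untreated enteroendocrine-like cells had a Nrg1 UMI (23.3%, exact binomial interval 9.93% to 42.3%), against 0.752% of goblet-like and 0.357% of proliferating-like cells. At 24 h it was 0 of 12 enteroendocrine-like cells, with an upper limit of 26.5%, which lies above the untreated 23.3%. The limit of 10.5 CPM covers counting error only and not the sampling of cells. The Nrg1 value thus rests on few cells, of which the highest stood at 8026 CPM, and only 12 and 21 enteroendocrine-like cells were sampled at 24 h and 48 h. The enteroendocrine-like cells of both treated libraries, with 0 and 1 Nrg1 UMIs, were also those with more Egfr.

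Nrg3 differed in the other direction, with 27, 91 and 108 UMIs and log2 ratios of 1.24 (0.61 to 1.92) and 2.08 (1.46 to 2.74). Its level in cells, 0.54, 1.28 and 2.29 CPM, lay below that of the barcodes under 2000 UMIs, 1.68, 2.90 and 3.56 CPM. These counts therefore cannot be told apart from free RNA. The remaining ligand genes were rare. Egf had 87, 52 and 74 UMIs, Epgn 2, 6 and 4, Nrg2 8, 12 and 8 and Nrg4 16, 13 and 13. Fos, an immediate early gene of ERK signaling, had log2 ratios of -1.37 (-1.41 to -1.32) and -2.60 (-2.66 to -2.53). For Gab1, an adaptor of receptor tyrosine kinases, they were -2.07 (-2.23 to -1.91) and -1.35 (-1.51 to -1.20), and for the FGF receptor gene Fgfr3 -3.41 (-4.09 to -2.79) and -2.71 (-3.36 to -2.11).

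The genes whose pattern was most like that of Areg and of Hbegf, the members with the largest mean ratio in each direction, were sought by Pearson correlation of log2(CPM + 1) over 20 combinations of cluster and library among 7360 genes. These points share libraries and are not independent, so the values are descriptive. For Areg they were Parp3 (r = 0.89), Oasl1 (r = 0.87) and Isg15 (r = 0.87). Oasl1 and Isg15 are known interferon-induced genes, and the pooled level of Isg15 was 9.48, 125 and 85.0 CPM in the untreated, 24 h and 48 h libraries. For Hbegf they were Tnfaip3 (r = 0.93), an inhibitor of NF-κB signaling, Hes1 (r = 0.91), a target of Notch signaling, and Usp53 (r = 0.90). Hes1 stood at 159, 40.4 and 29.7 CPM and Tnfaip3 at 36.8, 15.8 and 19.8 CPM, so both were highest in the untreated library, as Hbegf was. Genes chosen by correlation over these libraries tend to share such a difference, so it is no separate result. The same holds for the genes like Areg.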

How the data were processed

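Colon organoids were profiled by sc-RNAseq with 3' v3 chemistry (10x Genomics) after removal of dead cells by FACS with DAPI. The authors mapped reads to mm10 with Cell Ranger 6.0.1, according to the submitters' processing notes, and deposited integer UMI counts per gene and barcode without normalization. The annotation release and the strand setting are not given in the sources used here. No depth beyond the UMI totals was needed, and intervals cover counting error only.

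Cells were filtered as in the study's methods. Doublets were kept, free RNA was not removed, and leaving out the 5% of cells with the most UMIs was an alternative. Counts were summed per library or cluster and scaled to CPM, or by TMM factors (edgeR 4.0.16). Ratios have exact conditional binomial intervals, levels exact Poisson intervals and shares exact Clopper-Pearson intervals (SciPy 1.17.1), all at 95%. The ratio computation was tested on simulated data.

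Clusters were made in Seurat 5.3.0 with CCA (30 dimensions, 2000 variable genes), 20 principal components and Louvain clustering at resolution 0.5. A cluster was named after its best marker list by median log2 fold where 3 markers or more were up (log2 fold of at least 0.5 in at least 10% of cells) and at least 1 was among the 10 leading genes, with no other list holding more. A shallow cluster without a leading marker stayed unnamed. Cluster levels are given for at least 10 cells. Clusters were rebuilt here and may differ from those of the study.

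All 10 members are named in every library. Of the pathway list, every EGF family ligand, the ErbB receptor and the 5 largest mean ratios are named, Adam17, Ccnd1 and Myc being chosen after their values were seen. The other growth factor receptors are given as counts, apart from Fgfr3. For likeness, the 3 genes with the highest r were taken, among genes with at least 20 CPM in a library, over clusters with at least 20 cells. Members and lists were chosen with earlier results of these data known. Positions come from GENCODE vM21 (GRCm38) and promoters from RefSeq (GRCm38.p6).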

Additional observations from a re-analysis of the deposited data

Results flagged for a closer look

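The pooled Egfr ratio pointed in opposite directions at the 2 times, at -0.68 on the log2 scale after 24 h and 0.13 after 48 h. Over the alternative settings the 24 h value ranged from -0.68 to -0.03 and the 48 h value from -0.08 to 0.40, with the 48 h sign kept in 5 of 8 settings, so the opposition does not hold in all of them. At 24 h the clusters also pointed in opposite directions, with -0.74 in proliferating-like, -0.94 in colonocyte-like, 0.47 in goblet-like and 1.64 in enteroendocrine-like cells. Of all 8 clusters, 2 were higher and 6 lower at 24 h, with intervals that excluded 0 in 2 and 4 of them. These differences were not tested, since each condition has 1 library.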

How the results depend on the processing

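The count of genes at least 2-fold higher was 2 at each time under every alternative run. The count of genes at least 2-fold lower at 24 h, 5, was 1 with TMM factors, 2 with cells thinned to 5000 UMIs, 3 with clusters weighted by their untreated shares, and 4 with a minimum of 2000 UMIs, with at most 10% mitochondrial UMIs or with the mean over cells. At 48 h the count, 1, was 2 with a minimum of 10000 UMIs per cell, 0 with TMM factors, 3 with the mean over cells, 4 after thinning and 2 with untreated cluster shares. The cause was not tested. Of 160 single ratios under the alternatives, 78 stayed within their counting interval and 82 moved outside it. The ratios of Btc at both times, Tgfa at 48 h and Egfr at 48 h did not keep their sign under every alternative. The cluster with the highest level was the same for 23 of 30 pairs of gene and library at a resolution of 1, 26 at a resolution of 0.3 and 21 without integration. Leaving out the cells led by Gm26917, an alternative added after seeing the data, moved no ratio outside its interval. No paired analysis was possible because each condition has 1 library, and for the same reason no library could be left out. Low counts limit Ereg, Tgfa, Btc and the rarer ligands, and few cells the enteroendocrine-like cluster.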
